A study of Mus musculus with 4 samples.

Results

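The hair matrix and cortex keratins are the structural keratins with which cells leaving the hair matrix build the hair shaft. The set names 10 genes, and 9 were analysed, 6 of type I on chromosome 11 (Krt31, Krt33a, Krt33b, Krt34, Krt35 and Krt36) and 3 of type II on chromosome 15 (Krt81, Krt83 and Krt86). Krt85 was not analysed here. The members were chosen by name, with earlier results of these data known. Their regions are those of the authors' deposited table that overlap the gene or 5 kb on either side of it. This gave 46 of 484555 listed regions. Of these, 5 lay in the windows of more than 1 member and are counted once.

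Whole-genome bisulfite sequencing was done on DNA of sorted hair matrix keratinocytes of postnatal day 4.5 mice, in 2 libraries per genotype. The genotypes were WT and Tet2/Tet3 DKO, Krt14-Cre, in which Cre is driven by the promoter of a basal epithelial keratin. Whether each library stands for its own animal is not stated in the labels, nor whether the WT carried Cre or floxed alleles. TET enzymes oxidise 5-methylcytosine, and the comparison asks how methylation differs in cells without Tet2 and Tet3. The method does not tell 5-methylcytosine from 5-hydroxymethylcytosine. Each level below is the authors' own mean over a genotype, as their deposited table gives it, with no value per library and unknown depth, so no difference has a replicate check. The header numbers the genotypes without naming them. Group 1 was taken to be WT because the title names WT first, and each direction rests on this. The spread estimate beside a region is the authors' own and can be shared by neighbours and by regions further apart. Its lowest value on chromosome 11, 3.20 points, recurs at regions of Krt31, Krt35 and Krt36. The labelled cell type cannot be checked against markers with methylation levels alone.

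Hair keratins work as pairs, with an acidic type I chain and a basic type II chain joined in each filament unit. In the growing follicle, Krt35 and Krt85 are known to appear first, in the matrix, precortex and cuticle, and the other members follow higher in the cortex. The type I and type II genes form separate clusters, and Krt81, Krt83 and Krt86 are closely similar to each other, as are Krt33a and Krt33b. Levels inside such copies are uncertain, since the placing of reads between them was not tested.

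Methylation was higher in the DKO in stretches within 5 kb of all 6 type I genes and of 1 of the 3 type II genes. For Krt33b this rests on 1 region that is nearer to Krt33a, and its coverage was 0% when regions counted for the nearest member only, in its gene body, with 1 kb flanks or at a minimum of 30 points. A region is called gained here where its DKO level was at least 20 percentage points above its WT level. Of the 46 regions, 17 were gained (22.9% of all listed regions were), 16 of 31 at type I genes and 1 of 15 at type II genes. On the whole chromosomes the gained share of listed regions was 25.8% for chromosome 11 and 23.3% for chromosome 15. Over the 17 gained regions the median WT level was 50.9% (17.2 to 64.1) and the median DKO level was 82.6% (42.4 to 90.97). Their differences ran from 23.8 to 45.6 points, with spread estimates from 3.20 to 4.12 points. The other 29 regions differed by -6.46 to 6.26 points, so that no listed region of these genes lay between the last value and 23.8 points. Among all regions the authors listed, none has an extreme statistic between -4.02 and 1.53, so regions between these values are left out. Whether this leaves the band of differences empty was not tested. All 9 windows held a listed region, as did 88.6% of protein-coding gene windows, and 7 of 9 held a gained region, against 64.4% of all such windows (75.6% on chromosome 11 and 73.7% on chromosome 15). None held a region at least 10 points lower in the DKO, against 8.5% of windows (2.54% of listed regions).

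**Figure D1:**
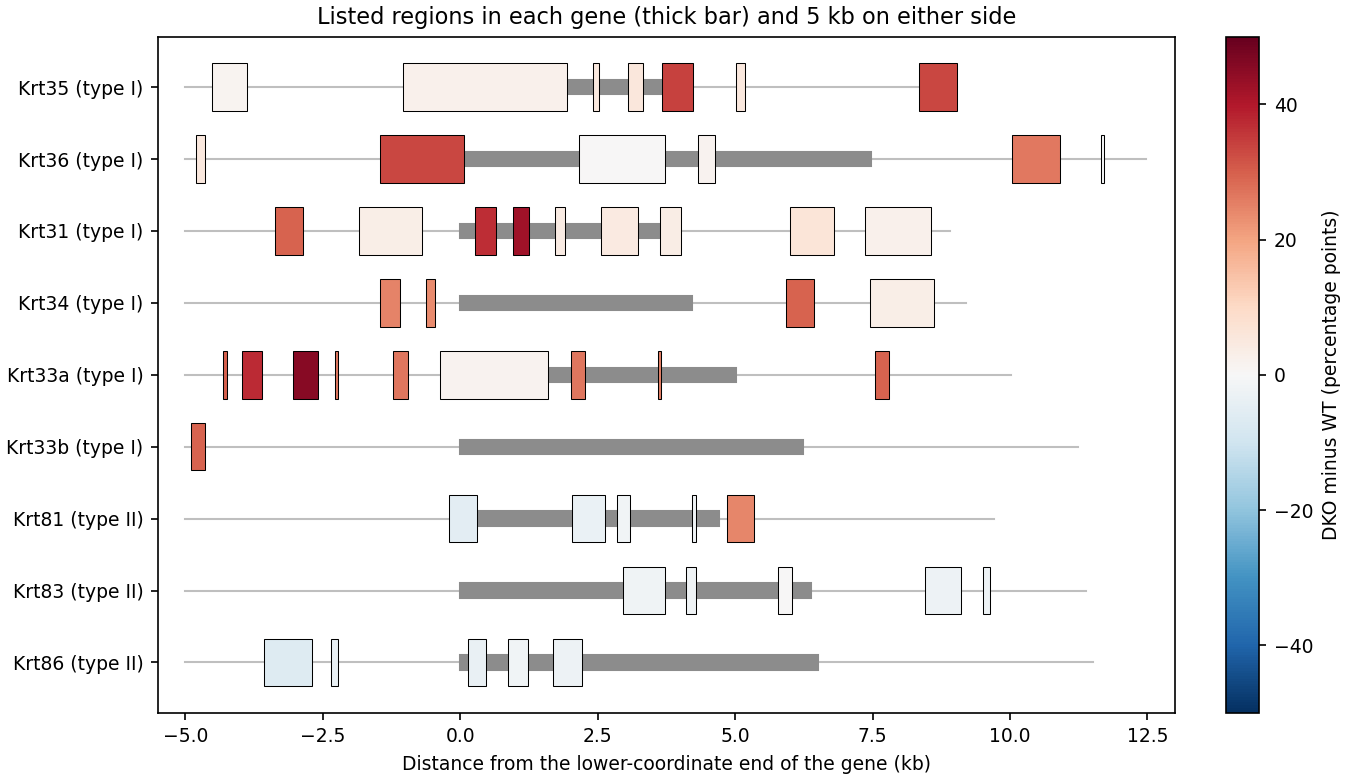
Each row is a gene (thick grey bar) with 5 kb on either side (thin line), on a scale in kb from the gene's lower-coordinate end, and each box is a listed region, coloured by DKO minus WT in percentage points and drawn within the window. Light to dark red boxes (gained regions, 23.8 to 45.6 points) lie in the windows of the 6 type I genes and once beside Krt81, and the boxes of Krt83 and Krt86 are pale.

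Krt35, the early type I keratin of the matrix and precortex, held its gain at a gene end. The region at chromosome 11, 100095867 to 100096421, lay across the higher-coordinate end of the gene and had 42 positions. The authors' means were 31.1% for WT and 65.1% for DKO cells (difference 34.0 points, spread estimate 3.20). RefSeq's promoter table places the neighbouring type I genes Krt31, Krt32, Krt33b and Krt34 on the minus strand, with their start sites at this end. Krt36 is on the same strand, but its start site in that table lies inside the annotated gene. The strand of Krt35 itself was not used here. Among the 11 gained regions of at least 10 positions it was the densest, with 75.7 positions per kb, and it had the lowest WT level. The body of Krt35 on the other side of this region was methylated in both genotypes. A region of 90 positions from 100091159 to 100094135, across the lower-coordinate end, had a WT level of 85.8% and a DKO level of 88.5%. The smaller regions inside the gene had WT levels of 82.3% and 83.6% and DKO levels of 87.3% and 89.3%.

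Between Krt35 and its neighbour Krt36 lay a second, wider gain. Krt36, a type I keratin of the cortex that is also known from the tongue, begins 5787 bp beyond Krt35. The region at chromosome 11, 100100546 to 100102074, crossed the 3′ end of Krt36 and lay 4321 bp from Krt35. Over its 1529 bp and 42 positions the WT level was 47.9% and the DKO level 81.5% (33.5 points, spread estimate 3.30). Inside Krt36, the region from 100104179 to 100105733 was at 92.004% and 92.2% in WT and DKO cells, a difference of 0.206 points over 51 positions. On the 5′ side, 2557 bp from the annotated gene, the region from 100112045 to 100112921 was gained, with a WT level of 57.2% and a DKO level of 83.5% (26.3 points). Krt36 had the highest share of its window in gained regions among the members, 13.8%. That rank depended on the setting. Krt35 led at a minimum of 30 points (8.79% against 8.75% for Krt36), Krt31 in gene bodies (17.6% against 0.843%) and with 1 kb flanks (11.6% against 11.2%), and Krt33a with neighbours within 500 bp merged (15.2% against 13.8%).

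Krt31, a main type I keratin of the cortex, held its gains in the 3′ part of the gene. The region from 100046912 to 100047301 had a WT level of 45.5% and a DKO level of 82.4% (37.0 points). The next, from 100047605 to 100047901, was at 42.8% and 85.03%, which is the widest difference inside any of the 9 genes (42.2 points, spread estimate 3.68). From there towards the 5′ end the levels were high in both genotypes. The 3 following regions, the last of them across the 5′ end, had WT levels of 88.8%, 84.5% and 82.4% and DKO levels of 92.7%, 89.1% and 86.3%. Each of them was higher in the DKO by 3.87 to 4.54 points, with spread estimates of 3.20 to 3.68 points.

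Krt34 and Krt33b, type I keratins of the cortex, held no listed region inside the gene. Beside Krt34, regions 1096 bp and 464 bp past the 3′ end had WT levels of 57.8% and 59.1% and DKO levels of 82.6% and 82.9%. A region at 100043269 to 100043778, 1714 bp from the 5′ end of Krt34 and 2867 bp from the 3′ end of Krt31, was at 57.1% in WT cells and 86.4% in DKO cells (29.3 points). For Krt33b the window held 1 region, at 100018744 to 100018996. That region lay nearer to Krt33a (2531 bp) than to Krt33b (4637 bp), and its authors' means were 51.4% for WT and 80.7% for DKO cells. No region was listed from 100018997 to 100035888, a stretch of 16892 bp that contains all of Krt33b. The table's own numbering counts 275 positions there, or 16.3 per kb, against 19.3 per kb over the whole stretch from Krt33a to Krt31. A stretch without a listed region has no level in the table, so the methylation of the Krt33b body is not given.

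Krt33a had the most gained regions, 8 of the 9 in its window. The widest difference of all members lay 2583 bp outside the gene on the lower-coordinate side, at 100008163 to 100008615, where the WT level was 44.4% and the DKO level 90.002% (45.6 points, spread estimate 3.53). It was part of a run of 5 gained regions between 4277 and 941 bp from the gene, whose WT levels ranged from 35.7% to 64.1% and whose DKO levels ranged from 65.6% to 90.97%. A highly methylated region of 76 positions across that gene end (WT level 89.6%, DKO level 91.3%) separated this run from 2 gained regions inside the gene. These were small, with 8 and 6 positions. The first had a WT level of 41.1% and a DKO level of 67.8%. The other, at 100014788 to 100014810, had the lowest levels of all 46 regions, a WT level of 17.2% and a DKO level of 42.4%, over 23 bp.

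At the type II genes gains were few. Krt81, a cortex keratin whose human counterpart is known from the brittle-hair disorder monilethrix, held the only gained region of the 3. It lay at chromosome 15, 101463909 to 101464406, 143 bp outside the higher-coordinate end, with 30 positions, and its WT and DKO levels were 56.6% and 80.8% (24.3 points, spread estimate 3.51). RefSeq places Krt82 and Krt84, 2 other hair keratins of this cluster, on the minus strand with their start sites at this kind of end. The strand of Krt81 was not used here. After the Krt35 region, it was the densest of the gained regions with at least 10 positions (60.2 per kb). Across the lower-coordinate end of Krt81, a region of 18 positions had a WT level of 68.0% and a DKO level of 62.8% (-5.22 points, spread estimate 4.95). Wholly inside Krt81 the table lists 3 regions, with WT levels of 70.6%, 51.2% and 88.4% and DKO levels of 67.3%, 49.6% and 86.7%. The middle of these, at 101461905 to 101462157, stands out among the members. It had 6 positions and an intermediate WT level but a difference of -1.65 points, while 12 of the 13 member regions with a WT level of 40% to 60% were gained. Over all listed regions of that WT level, 76.0% were gained, and of those at 60% to 80%, 9.34%. At type II genes 1 gained and 1 other region had a WT level of 40% to 60%, and 0 lay under 40%. At type I genes 11 gained regions lay at 40% to 60% and 3 under 40%, and all regions at these levels were gained. Beyond these counts, the gained share of the keratin types was not compared at matched WT levels.

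Krt86 and Krt83, cortex keratins also tied to monilethrix in people, held 5 listed regions each and no gained one. The regions of Krt86 had WT levels from 67.9% to 86.9% and DKO levels from 65.4% to 85.3%, and all 5 had a lower DKO mean, with differences from -6.46 to -1.58 points. Those of Krt83 had WT levels from 72.7% to 88.7% and DKO levels from 70.1% to 89.1%, and 4 of 5 had a lower DKO mean. The widest difference, at 101469900 to 101470773 beside Krt86, was -6.46 points (WT level 75.8%, DKO level 69.4%) with a spread estimate of 3.89. From 101475699 to 101488094, across the higher-coordinate part of Krt86 and the lower-coordinate part of Krt83, no region was listed over 12396 bp with 302 positions by the table's numbering. At 24.4 positions per kb this gap was about as dense as the stretch around it (25.01 per kb).

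**Figure D2:**
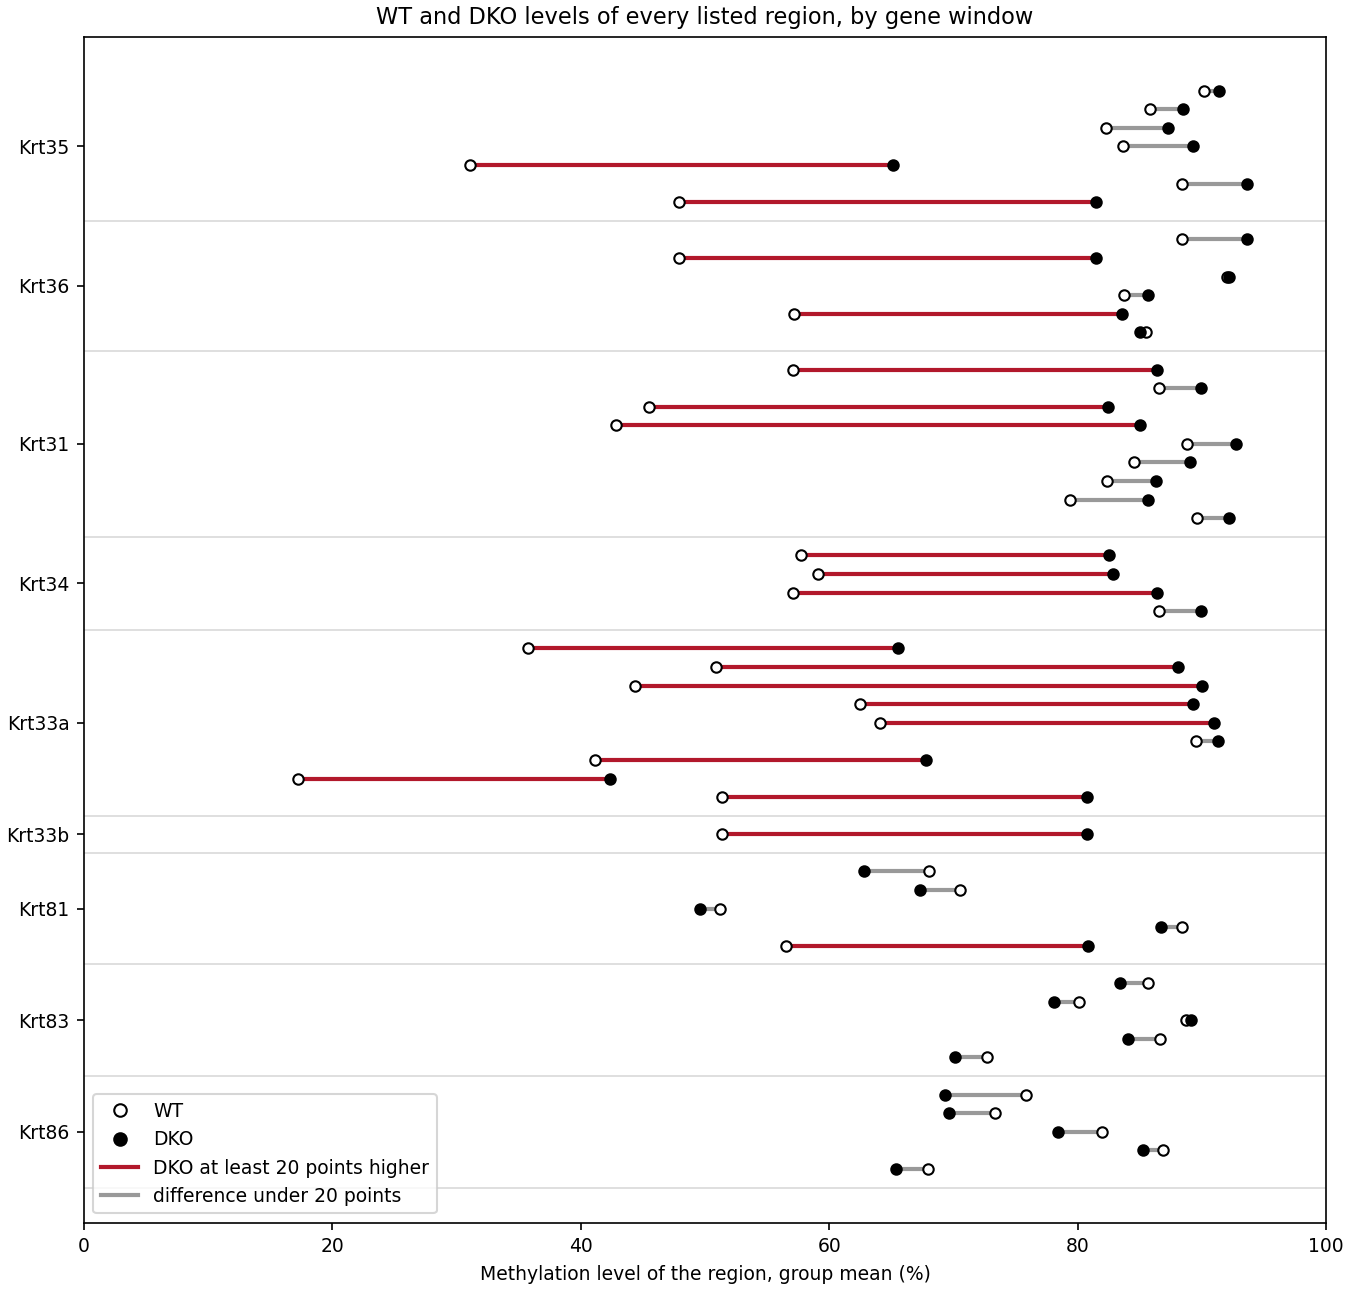
Open circles are WT and filled circles DKO group means (%) of every listed region, 1 line per region, by gene window and in order of position; a region in the windows of 2 genes is drawn in both. Red lines mark gained regions, most of which start between 40% and 65% and end above 80%. Type II genes show short grey lines with the DKO on the left, except 1 gained region beside Krt81 and 1 region of Krt83.

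The small differences also had opposite signs in the gene clusters. Of the 15 regions under 20 points at type I genes, 14 had a higher DKO mean, with a median of 3.33 points. At type II genes 13 of 14 had a lower DKO mean, with a median of -2.56 points. A higher DKO mean was found in 32.8% of all listed regions that differed by under 20 points, in 40.5% of those on chromosome 11 and in 36.8% of those on chromosome 15, so that a lower DKO mean is the common direction among them. The medians of listed regions that differed by under 20 points were -0.780 on chromosome 11 and -1.39 on chromosome 15. With WT levels of at least 80% only, the medians were 2.99 points for 14 type I regions and -2.005 for 7 type II regions, against -0.801 and -1.31 on the chromosomes. The difference was no larger than the region's spread estimate in 8 of the 15 type I regions and in 12 of the 14 type II regions, with estimates from 3.20 to 4.95 points. All 29 were listed with a positive statistic, the sign that stands for a higher WT, although 15 had a higher DKO mean. The zero of the authors' statistic is thus not at equal means, and the table's list of small differences gives no balance of directions.

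**Figure D3:**
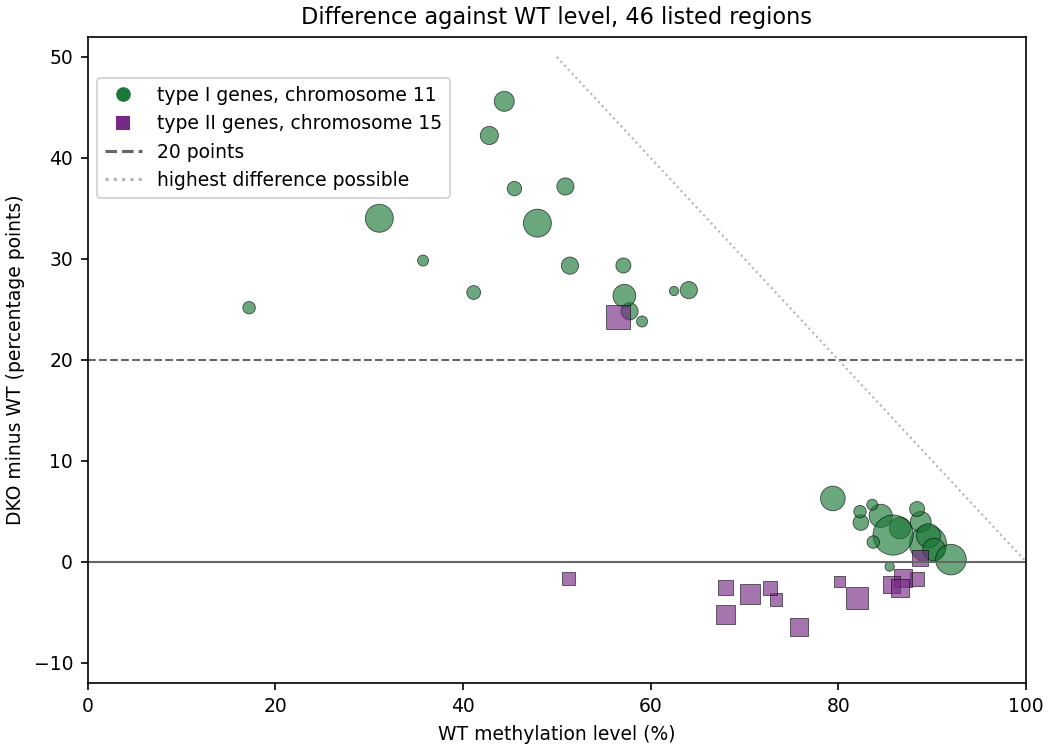
DKO minus WT in percentage points (y axis) against the WT level in % (x axis) for the 46 regions; symbol area grows with the number of positions. Regions with a WT level under 65% are gained with 1 exception at Krt81, and no listed region lies between 6.26 and 23.8 points. The authors' list leaves out regions with an extreme statistic between -4.02 and 1.53. In the lower group the type I regions (green) lie above 0 and the type II regions (purple) below it, with 1 exception each.

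The positions of the gains were compared with the direction of transcription for the 4 members with a strand in RefSeq's promoter table (Krt31, Krt33b, Krt34 and Krt36). A gained region lay on the 3′ side, across the 3′ end or in the 3′ part of the gene in 7 of 9 pairs of a member and a gained region, with a region in the windows of 2 members counted for each. The region between Krt34 and Krt31 therefore counts once as 5′ and once as 3′. By its midpoint a gained region lay 3′ of the gene's midpoint in the same number of pairs, 7 of 9, and a region under 20 points did so in 4 of 11. Over all protein-coding genes with a strand in that table, 46.9% of 59554 pairs with a gained region lay 3′ of the gene's midpoint. The count rests on 4 members, and its difference from that share was not tested. All 4 are on the minus strand, so the 3′ side cannot be told apart from the lower-coordinate side here. For Krt36 the sides follow the annotated gene, although its start site in that table lies inside the gene. Within 1 kb of either gene end, 6 of 9 members held a gained region, against 23.6% of protein-coding genes. Of these, 4 did so at the lower-coordinate end (Krt31, Krt33a, Krt34 and Krt36) and 2 at the higher-coordinate end (Krt35 and Krt81).

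The 4 promoters of cortex keratins in RefSeq's promoter table, all of type I, held few CpGs. Listed regions reached into those of Krt31 (82.4% in WT and 86.3% in DKO cells) and Krt36 (92.0% and 92.2%), and none reached into those of Krt33b and Krt34. In the 300 bp from 250 before to 50 after the start site, Krt31 and Krt33b held 2 CpGs, Krt36 held 3 and Krt34 held 4, against a median of 13 over 21263 promoters of protein-coding genes. The 250 bp before the start site are shown for 3 of them from RefSeq (GRCm38.p6, minus strand). Krt36 and Krt33b had the highest and lowest window coverage of the later members in that table, and the start site of Krt31 lies in a listed region, as does that of Krt36. Capitals mark CpGs.
Krt31, chr11:100050552-100050801: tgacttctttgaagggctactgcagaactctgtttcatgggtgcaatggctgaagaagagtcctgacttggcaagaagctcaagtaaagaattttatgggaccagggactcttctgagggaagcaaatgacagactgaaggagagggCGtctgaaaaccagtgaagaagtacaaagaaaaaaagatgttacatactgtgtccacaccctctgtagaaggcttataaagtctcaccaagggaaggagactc
Krt36, chr11:100105627-100105876: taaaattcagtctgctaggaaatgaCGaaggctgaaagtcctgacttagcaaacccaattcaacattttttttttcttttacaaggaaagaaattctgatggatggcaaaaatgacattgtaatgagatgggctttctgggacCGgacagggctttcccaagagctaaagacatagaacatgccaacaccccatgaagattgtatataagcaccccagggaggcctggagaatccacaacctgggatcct
Krt33b, chr11:100029869-100030118: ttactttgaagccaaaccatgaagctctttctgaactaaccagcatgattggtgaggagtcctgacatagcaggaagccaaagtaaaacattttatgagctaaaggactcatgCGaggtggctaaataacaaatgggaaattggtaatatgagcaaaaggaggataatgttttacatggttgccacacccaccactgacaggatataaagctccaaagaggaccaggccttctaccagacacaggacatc

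At Krt31 the listed region across the start site had a WT level of 82.4% and a DKO level of 86.3%. At Krt36 the listed region across the start site of this promoter was at 92.004% and 92.2%. The promoters of Krt34 and Krt33b lay 1464 and 5770 bp from the nearest listed region. For comparison, the region that crosses the start site of Krt32, a hair cuticle keratin next to Krt35, was at 90.2% and 91.4%. Searched on both strands, TATAAA was found in 3 of the 4 member promoters (12.6% of all promoters), CTTTGAA, a form of the Lef/Tcf recognition sequence, in 3 (4.54%) and TTTATNG, a Hox-type sequence, in 2 (9.58%). ACGC, the core read by Foxn1, was found in 3 (62.9%), and CTTTGTT and TTAATNG in 0 of 4 (5.01% and 5.39%). The sequence TTTTATG, which overlaps TTTATNG and was chosen after the promoters were seen, was found in 3 (3.07%). In Krt31, Krt33b and Krt34 a CTTTGAA began 240 to 247 bp before the start site and a TTTTATG 155 to 160 bp before it, and the promoter of Krt36 held neither. The promoter of Krt32, which is not a member, held both as well, 247 and 159 bp before its start site. These are matches of letters and not known sites.

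In the share of its window that was gained, Krt35 lay within the range of the later keratins. It had 8.79% of its window in gained regions. The 8 later members averaged 5.71%, with Krt36 at 13.8%, Krt33a at 11.1%, Krt31 at 8.61%, Krt34 at 7.21%, Krt81 at 3.39%, Krt33b at 1.56% and Krt83 and Krt86 at 0%. The 5 later members of type I averaged 8.45%, which is 0.342 points below Krt35. When each region was counted only for its nearest member, the order turned, with 3.95% for Krt35 and 5.05% for the later members, since the wide region next to Krt36 no longer counted for Krt35. The early side rests on 1 gene and the comparison was not tested, because genes are not replicates of a condition. The Krt35 gain lay at the higher-coordinate gene end, where Krt81 also had a gain beside it and where Krt31 was already at 82.4% in WT cells.

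By median coverage with both chromosomes pooled, the members lay between the inner root sheath keratins and the other hair keratins. On chromosome 11 the medians were 8.70% for the members, 1.17% for the other hair keratins and 19.6% for the inner root sheath keratins. On chromosome 15 they were 0%, 0.219% and 11.3%, so the members there lay lowest. Mean coverage by gained regions was 6.05% over the 9 members (median 7.21%), 8.51% over the type I members and 1.13% over the type II members, beside 21887 protein-coding genes with a mean of 2.67% and a median of 1.29%. A gained region was held by 64.4% of the 21887 genes, and by 72.7% of those with any listed region. Windows differ in length, and the counts of genes below were not adjusted for it. Krt36 lay among the 1.59% of genes with the highest coverage and Krt33a among the 3.38%. Of the 6 other hair keratins, 4 held a gained region and the median coverage was 0.695%, led by Krt39 at 14.3% and Krt82 at 6.31%. All 8 keratins analysed from the inner root sheath and its companion layer held one, with a median of 13.9%, led by Krt25 at 27.4% and Krt27 at 22.7%. The 4 of these on chromosome 15, in the same type II cluster as Krt81, Krt83 and Krt86, had coverages from 10.1% to 22.3%. Of 12 regulators of hair keratin genes, 10 held a gained region, with a median of 6.81%, led by the homeobox factor Dlx3 at 21.9% and the ligand Bmp4 at 20.3%. Hoxc13, a homeobox factor that binds hair keratin promoters, was picked out after its values were seen and held 6 listed regions and 0 gained ones. Markers of melanocytes, fibroblasts, endothelium and immune cells held a gained region in 11 of 12 cases, with a median of 3.10%, led by Pecam1 at 10.96% and Dct at 9.99%. Whether such cells were among those sequenced was not tested.

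**Figure D4:**
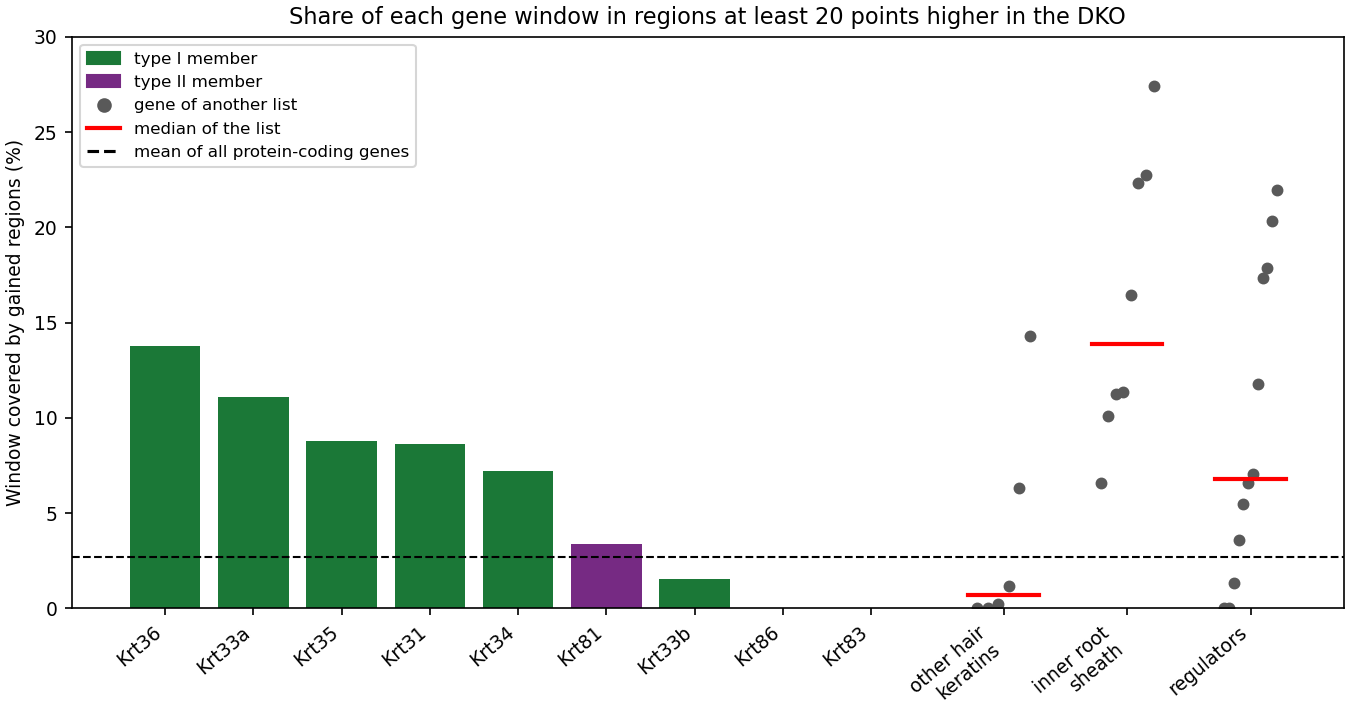
The y axis is the percent of each gene window that lies in gained regions. Bars are the 9 members, points are genes of 3 other lists with their median (red line), and the dashed line is the mean of all protein-coding genes (2.67%). Among the 9 genes, 5 of type I lie between 7.21% and 13.8%, Krt81 is just above the dashed line, and Krt33b, Krt83 and Krt86 lie below it.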

How the data were processed

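The 2 WT and 2 DKO bisulfite libraries were processed by the authors. The submitters' processing notes name Trim Galore, Bismark and the build GRCm38 (mm10). How regions were called, smoothed and filtered is not given in the sources used here. Per the file headers, the authors' deposited table gives each region a group mean as a fraction (0 to 1), printed here as a percentage, and a spread estimate on the same fraction scale. The deposited statistic, summed over positions or at its extreme, is treated as a score with no fixed range. Most CpGs count as 2 positions, 1 per strand: of the regions with 2 positions, 89.2% spanned 2 bp. The table's title puts WT first, so group 1 was read as WT. Every direction rests on that order.

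The planned logistic tests need reads per library and were not run. Depth is unknown, and no p-value or interval is given. Regions overlapping a gene with 5 kb on either side were taken from RefSeq gene positions of GRCm38.p6. Coverage is the percent of this window lying in regions whose DKO level was at least 20 points above the WT level, computed likewise for 21887 protein-coding genes. The routine was tested on simulated intervals. Members and lists were chosen with earlier results of these data known. All analysed members are named, with the 2 genes of highest coverage in each other list. Promoters follow the rule of highest and lowest coverage among later members, with Krt31 added after its values were seen. Alternatives were other differences, windows, minimum positions, merging and nearest-gene assignment. Python 3.11.15, numpy 2.4.6, pandas 2.3.3 and matplotlib 3.10.9 were used.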

Additional observations from a re-analysis of the deposited data

How the results depend on the processing

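The table gives no values or reads per library, so leaving out libraries was not run. No paired analysis was possible because the table has group means only. A value counts as stable here within a factor of 1.5, or, for a widest difference, within the authors' spread estimate. The 7 members with a gained region were 4 at 30 points and 4 with gene bodies only. The 17 gained regions were 6 at 30 points, 6 in gene bodies, 9 with 1 kb flanks and 11 with at least 10 positions. Mean coverage of 6.05% was 3.11% at 30 points and 3.65% in gene bodies. Krt35 minus the later mean, 3.09 points, was 6.40 at 30 points, 5.88 in gene bodies, 1.89 with neighbours within 500 bp merged, -1.10 with the nearest member only and, chosen after seeing the data, 0.342 against later type I members. The widest difference in gene bodies was 26.7 points for Krt33a (26.9 with 1 kb flanks) and -1.65 for Krt81. For Krt34 it was 23.8 points with 1 kb flanks and 42.2 with 10 kb flanks. The widest difference of Krt86 went from -1.58 to 24.3 points with 10 kb flanks, which reach the Krt81 region. No listed region of these genes lay between 6.26 and 23.8 points, so a minimum of 10 points could not move the 4 summary results. Krt33b and Krt34 have no listed region in the gene body and so no value there. Unknown depth limits all levels.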
